A study of Homo sapiens with 15 samples.

Results

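VCaP cells given ERG siRNA 2 were compared directly with VCaP cells given ERG siRNA 1, across all detected genes. The members were the arrays whose treatment labels name either siRNA, which were 6 of the 15 arrays in the study, 3 for each siRNA. VCaP is an established prostate cancer line of luminal epithelial type that carries the TMPRSS2-ERG gene fusion. RNA was collected 72 h after transfection with an siRNA against ERG, from cells grown in DMEM with serum, and hybridised to Illumina HumanHT-12 v4 BeadChips. The other arrays came from cells given a non-targeting siRNA, the vehicle DMSO or the deubiquitinase inhibitor WP1130. The 3 non-targeting arrays enter the text below as levels beside the genes that differed between the siRNAs, with no test. Like the DMSO and WP1130 arrays, they also enter the normalization, the detection filter and the estimate of spread. The sources used here do not give the sequence or dose of either ERG siRNA, or whether it was a single duplex or a pool. Nothing in the labels ties the replicate arrays to separate cultures, so the p-values reflect the spread among these arrays only, and that spread may be technical.

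An siRNA is a short double-stranded RNA whose guide strand is loaded into an Argonaute protein and directs cleavage of a fully matching mRNA. The same guide can lower other mRNAs that match only its seed, the bases near its 5′ end, in the way a microRNA does, and those mRNAs differ between siRNAs of different sequence. For this reason knockdown studies commonly use more than 1 siRNA against a gene and compare them with each other. ERG itself is an ETS transcription factor, which binds DNA at GGAA cores and which the gene fusion places under control of the androgen receptor.

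The 3 RNA sequences below belong to the microRNA precursor gene MIR92A2, the only microRNA gene among those that differed between the siRNAs. MIR92A2 passed the detection filter through the ERG siRNA 2 arrays alone. Without background correction its difference did not pass (limma, adjusted p = 0.059). The sequences are shown because the seed is the part of a small RNA that selects targets. They are RefSeq sequences on GRCh38.p14, printed 5′ to 3′ from the minus strand. In the hairpin, at chrX:134169538-134169612, capitals mark both mature arms. In the mature RNAs, at chrX:134169544-134169565 and chrX:134169583-134169604, capitals mark the seed, bases 2 to 8. The 3p arm has the same sequence from 2 precursor genes, so its name does not identify the gene it came from.
microRNA 92a-2: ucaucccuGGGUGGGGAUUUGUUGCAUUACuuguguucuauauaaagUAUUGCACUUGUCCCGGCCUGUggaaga
hsa-miR-92a-3p: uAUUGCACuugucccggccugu
hsa-miR-92a-2-5p: gGGUGGGGauuuguugcauuac

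Promoter windows, from 250 bases before to 50 bases after the annotated start, were searched for the ETS-type motif CCGGAAG and its reverse complement CTTCCGG. A window was available for 10 of the 15 genes that differed between the siRNAs, namely DDC, GCSH, GMDS, GULP1, PAN3, PLA2G2A, PNRC2, RLN1, SASS6 and THBS1. The motif stood in 2 of these 10 windows, those of GCSH and SASS6, and in 3603 of all 35116 windows (10.3%). The bare core, GGAA or TTCC, stood in 9 of the 10 windows and in 95.5% of all windows. A match is a description of the letters and not a binding site. The window of GULP1, the gene with the largest difference, held no match to the longer motif and is printed beside the 2 windows that did, with the motif in capitals. The windows are RefSeq sequence on GRCh38.p14, at chr2:188291624-188291923 on the plus strand for GULP1, chr16:81096346-81096645 on the minus strand for GCSH and chr1:100132881-100133180 on the minus strand for SASS6.
GULP1: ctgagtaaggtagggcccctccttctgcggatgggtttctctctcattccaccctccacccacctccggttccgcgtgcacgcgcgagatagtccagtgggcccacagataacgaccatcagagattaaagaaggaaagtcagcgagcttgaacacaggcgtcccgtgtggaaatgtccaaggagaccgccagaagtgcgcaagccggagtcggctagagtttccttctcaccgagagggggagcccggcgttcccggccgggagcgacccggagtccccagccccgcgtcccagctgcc
GCSH: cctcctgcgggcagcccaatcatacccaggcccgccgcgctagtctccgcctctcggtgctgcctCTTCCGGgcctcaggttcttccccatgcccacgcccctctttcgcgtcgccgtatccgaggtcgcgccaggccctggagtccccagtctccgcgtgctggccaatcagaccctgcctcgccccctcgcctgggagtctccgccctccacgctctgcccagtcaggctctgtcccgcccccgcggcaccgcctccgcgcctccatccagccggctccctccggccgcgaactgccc
SASS6: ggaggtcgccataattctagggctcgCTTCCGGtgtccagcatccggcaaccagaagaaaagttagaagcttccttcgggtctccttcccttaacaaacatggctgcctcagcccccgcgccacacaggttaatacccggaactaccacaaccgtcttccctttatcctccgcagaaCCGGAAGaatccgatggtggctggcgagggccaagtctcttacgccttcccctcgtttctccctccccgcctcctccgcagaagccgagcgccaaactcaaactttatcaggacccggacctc

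All levels below are log2 intensities after background correction and quantile normalization of all 15 arrays, and every difference is ERG siRNA 2 minus ERG siRNA 1 on that scale, with its SE. A gene was measured if its probe was detected on at least 3 of the 15 arrays, where detected means a detection p under 0.05 against the negative control beads. This left 12744 genes, of which 12212 were detected on at least 1 of the 6 ERG siRNA arrays and 10165 on all 6. Mean raw intensity was 413 ± 27.2 with ERG siRNA 2 and 424 ± 11.9 with ERG siRNA 1 (SD, n = 3 each; exact permutation test, two-sided, p = 0.6, where 3 against 3 arrays allow no p under 0.1). Between 19223 and 20165 probes were detected on each of the 6 arrays. Arrays of ERG siRNA 2 correlated with each other at 0.99588 to 0.99623 over the genes tested and arrays of ERG siRNA 1 at 0.994545 to 0.995666. The 9 pairs of 1 array of each siRNA correlated at 0.994423 to 0.995642, which overlaps the range within ERG siRNA 1. Either siRNA against the non-targeting arrays gave lower values, 0.988713 to 0.990128 for ERG siRNA 2 and 0.989198 to 0.991329 for ERG siRNA 1.

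Markers of prostate luminal epithelium were present in both groups. Of the 11 markers, 9 were measured and detected on all 6 arrays, among them KRT8, KRT18, EPCAM, HOXB13, FOXA1 and TMPRSS2, while KLK3 did not pass the detection filter. Their summed level on the linear scale was 32548 to 34440 on the ERG siRNA 2 arrays and 29760 to 33631 on the ERG siRNA 1 arrays, and 0 of the 9 differed in the limma test at an adjusted p under 0.05. Of 10 fibroblast and smooth muscle markers 5 were measured (ACTA2, TAGLN, COL1A1, DCN and LUM), and 3 were detected on all 6 arrays. Their sums were 633 to 704 with ERG siRNA 2 and 636 to 723 with ERG siRNA 1. Of 6 blood markers 3 were measured (CD14, CD68 and LYZ), and 2 were detected on all 6 arrays. Their sums were 408 to 505 with ERG siRNA 2 and 475 to 503 with ERG siRNA 1, so the ranges overlapped for each marker list. PTPRC, CD3D, COL1A2, COL3A1, MYH11 and DES did not pass the filter, and neither did the basal markers KRT5, KRT14 and TP63. Of 4 endothelial markers only VWF was measured. As these are bulk RNA samples, fewer cells expressing a gene and less RNA per cell cannot be told apart.

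ERG, the shared target, stood at nearly the same level with both siRNAs. Its log2 intensity was 5.57, 4.81 and 5.29 on the ERG siRNA 2 arrays, 5.0, 5.76 and 5.12 on the ERG siRNA 1 arrays, and 6.13, 6.04 and 5.84 on the non-targeting arrays. On this scale the arrays of both siRNAs overlapped, all 6 lay below the 3 non-targeting arrays, and ERG was undetected on ERG siRNA 2 replicate 2. In raw intensity, ERG siRNA 2 replicate 1 (153) lay above non-targeting replicate 3 (152). The difference between the siRNAs was -0.07 ± 0.18 (95% interval -0.47 to 0.32; limma, adjusted p = 0.93; exact permutation test of 3 against 3 arrays, two-sided, p = 0.8), so that the level with ERG siRNA 2 was 95.1% of that with ERG siRNA 1. The probe was dim, with a mean raw intensity of 136 with ERG siRNA 2, 138 with ERG siRNA 1 and 166 with the non-targeting siRNA, and a difference in residual ERG within that interval was not detectable. The difference changed sign when a single array was left out, to 0.16 without ERG siRNA 1 replicate 2 and to 0.14 without ERG siRNA 2 replicate 2 (adjusted p = 0.86 and 0.90). ERG was read by a single probe past the filter. Further ERG probes did not pass the filter and gave 0.24 and 0.01.

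Across the transcriptome the siRNAs differed in few genes. In the limma fit 15 of 12744 genes (0.118%) passed an adjusted p under 0.05, with 8 higher in ERG siRNA 2 cells (0.0628%) and 7 lower (0.0549%). The 8 include MIR92A2, which passed the detection filter through the ERG siRNA 2 arrays alone. At an unadjusted p under 0.05 there were 1111 genes (8.72%), 634 higher (4.97%) and 477 lower (3.74%). In 1822 genes (14.3%) the 3 ERG siRNA 2 arrays did not overlap the 3 ERG siRNA 1 arrays. The median absolute difference was 0.083, the 99th percentile 0.39 and the median SE 0.10. By fitted values, a difference of at least 1.5-fold was seen in 12 genes (0.0942%), of which 3 were undetected on all ERG siRNA 1 arrays and have only a lower bound, and one of at least 2-fold in 1 gene (0.00785%), GULP1. For 12304 genes (96.5%) the whole 95% interval lay within 1.5-fold in either direction. The genes tested include 532 that were detected on none of the 6 ERG siRNA arrays. For these a narrow interval does not show that expression was alike. The share of higher genes among those that passed was 5 of 6 (83.3%) under median scaling, where GULP1, MIR92A2, THBS1, PLA2G2A, ALDH3B2 and RLN1 passed, and 2 of 3 (66.7%) with no scaling, where GULP1, MIR92A2 and RLN1 passed, against 8 of 15 (53.3%) here.

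**Figure D1:**
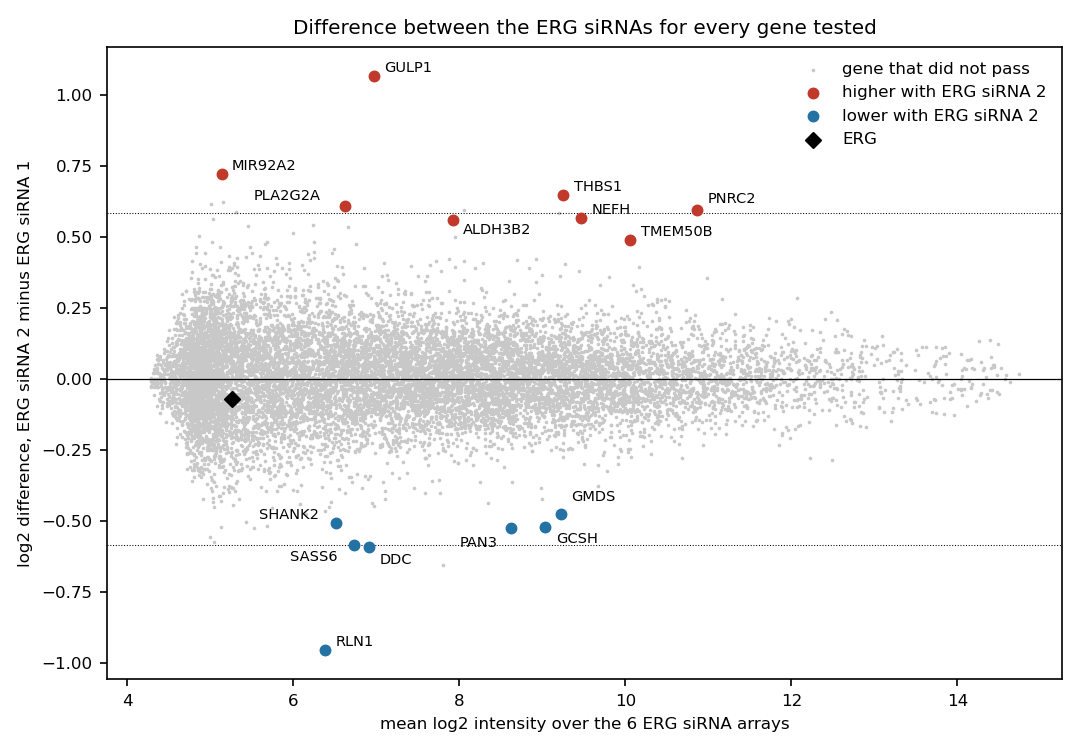
Difference in log2 intensity, ERG siRNA 2 minus ERG siRNA 1 (vertical axis), against the mean log2 intensity of the 6 arrays (horizontal axis), for 12744 genes. Dotted lines mark 1.5-fold and the black diamond is ERG. The 15 coloured and named points passed an adjusted p under 0.05 in limma, with sizes from 0.47 to 1.07, and the cloud around 0 has a median absolute difference of 0.083.

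The count rests in part on the spread shared by all 5 groups, which gives 10 residual degrees of freedom. When limma was fitted to the 6 ERG siRNA arrays alone (4 residual degrees of freedom), 1 gene passed, GULP1 (adjusted p = 0.0142), with 1011 genes (7.93%) at an unadjusted p under 0.05, and the other 14 genes had adjusted p-values from 0.0682 to 0.252. The differences themselves are the same in both fits. Below, the adjusted p from all 15 arrays is given for each gene, and of the genes described only GULP1 also passed in the fit of the 6 arrays alone.

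GULP1 and RLN1 had the largest difference in each direction. GULP1, an adaptor protein of the engulfment of apoptotic cells, had log2 intensities of 7.54, 7.48 and 7.48 with ERG siRNA 2, against 6.24, 6.48 and 6.57 with ERG siRNA 1. It was higher with ERG siRNA 2 by 1.07 ± 0.10 (95% interval 0.85 to 1.29; limma, adjusted p = 0.000385), or 2.10-fold. Without background correction the difference was 0.61 (adjusted p = 5.9e-06). The ERG siRNA 2 arrays lay within the range of the non-targeting arrays (7.32, 7.48 and 7.60), and all 3 ERG siRNA 1 arrays lay below it. GULP1 was read by a single probe past the filter, so no other probe bears on it.

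RLN1, a relaxin hormone gene, showed the opposite order. Its levels were 5.74, 6.13 and 5.84 with ERG siRNA 2 and 6.78, 7.01 and 6.80 with ERG siRNA 1, a difference of -0.96 ± 0.12 (95% interval -1.21 to -0.71; limma, adjusted p = 0.0026). The level with ERG siRNA 2 was 51.5% of that with ERG siRNA 1, and without background correction the difference was -0.45. Both siRNAs were above the non-targeting arrays (4.46, 4.56 and 4.44), on which RLN1 was undetected. The near-identical gene RLN2 can share signal with RLN1, so both values are uncertain as to the gene. RLN2 stood at 5.78, 5.95 and 5.83 with ERG siRNA 2, against 6.04, 6.41 and 6.44 with ERG siRNA 1, which is the same direction, but the difference of -0.44 ± 0.10 did not pass (adjusted p = 0.17).

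THBS1, a secreted matricellular glycoprotein, was higher with ERG siRNA 2, at 9.61, 9.59 and 9.52, against 8.96, 8.99 and 8.83 with ERG siRNA 1. The difference was 0.65 ± 0.08 (95% interval 0.49 to 0.81; limma, adjusted p = 0.0024). The non-targeting arrays, at 10.28, 10.42 and 10.53, were above both, so the level with ERG siRNA 2 lay between those of ERG siRNA 1 and of the non-targeting siRNA. PLA2G2A, a secreted phospholipase A2, had levels of 6.92, 6.85 and 7.01 with ERG siRNA 2 and 6.23, 6.25 and 6.47 with ERG siRNA 1, a difference of 0.61 ± 0.09 (limma, adjusted p = 0.0053). Here the non-targeting mean of 6.61 lay between the siRNAs, and without background correction the difference was 0.31.

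**Figure D2:**
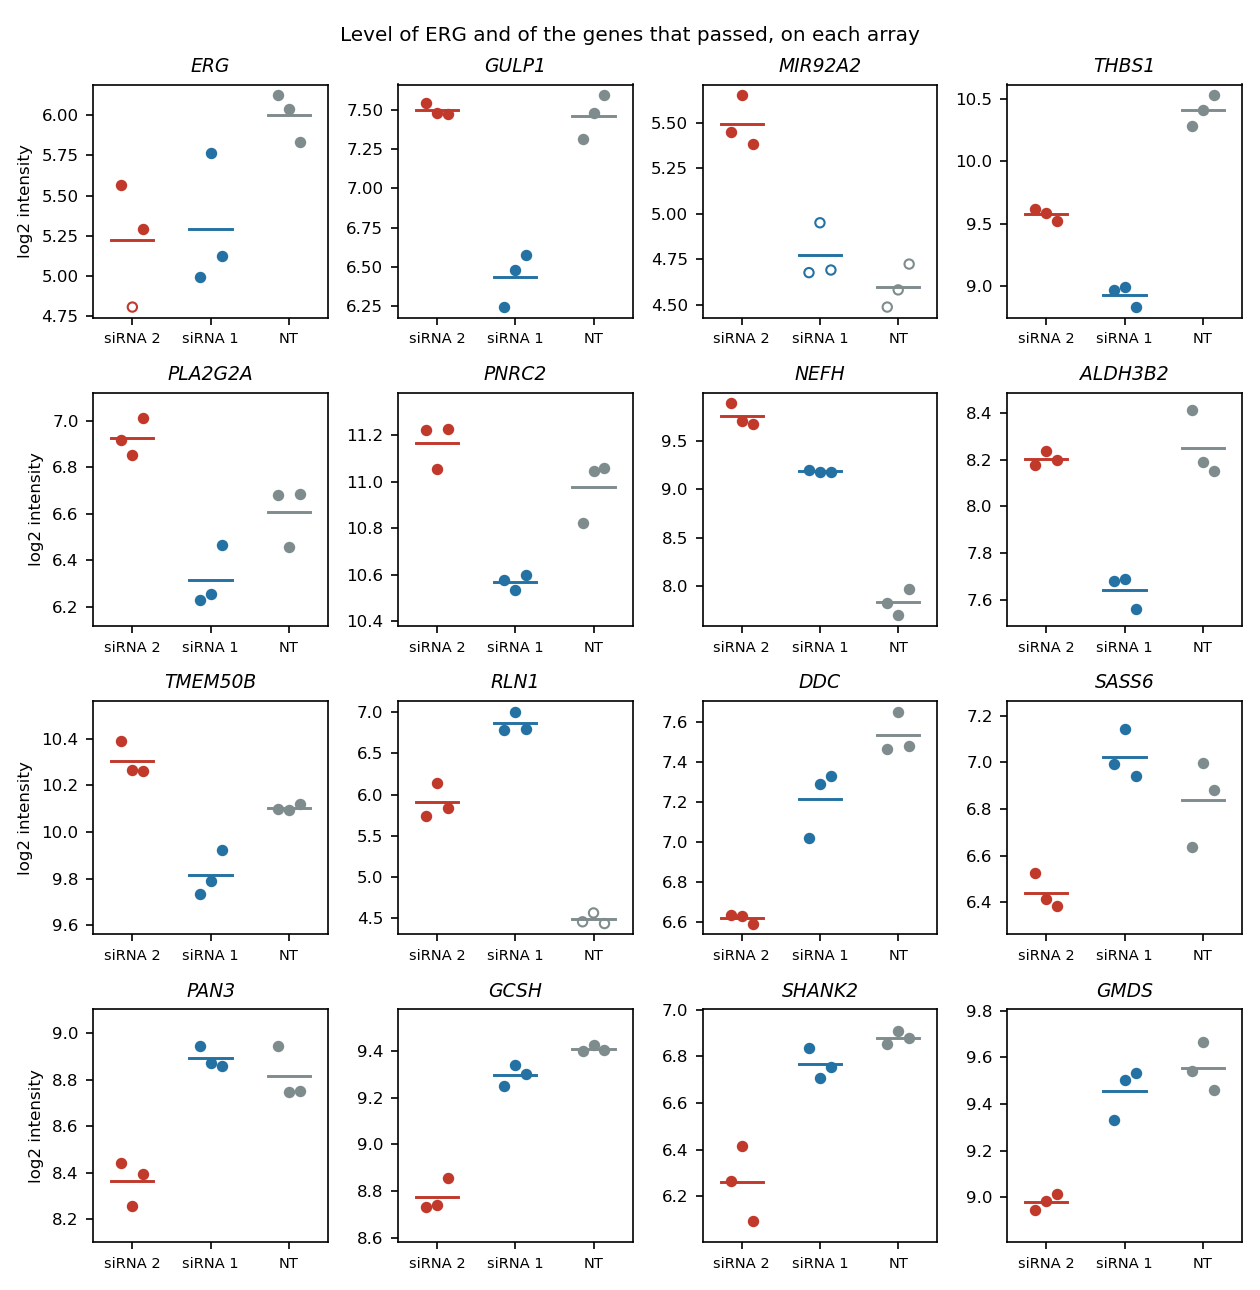
Log2 intensity (vertical axis) of ERG and of the 15 genes that differed on each array, with ERG siRNA 2 at the left of each panel, then ERG siRNA 1 and the non-targeting siRNA. Points are arrays, hollow where the probe was undetected, and horizontal bars are group means of 3 arrays; NT is the non-targeting siRNA and axes do not start at 0. The points of both ERG siRNAs overlap for ERG. They do not overlap for the other 15 genes, which was a condition for naming a gene and held in 1822 of all 12744 genes (14.3%).

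PNRC2, a nuclear receptor coactivator that also takes part in mRNA decapping, was higher with ERG siRNA 2, at 11.22, 11.05 and 11.23, against 10.58, 10.54 and 10.60 with ERG siRNA 1 (difference 0.60 ± 0.08; limma, adjusted p = 0.0041). A further PNRC2 probe gave 0.30, and PNRC2 no longer passed when the mean of its probes was used. PAN3, a subunit of the PAN2-PAN3 deadenylase, was lower with ERG siRNA 2, at 8.44, 8.26 and 8.39, against 8.94, 8.87 and 8.86 with ERG siRNA 1 (difference -0.53 ± 0.08; limma, adjusted p = 0.0058). The non-targeting mean of PNRC2 was 10.98, between the siRNAs, and that of PAN3 was 8.81, close to ERG siRNA 1.

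ALDH3B2, an aldehyde dehydrogenase, stood at 8.18, 8.24 and 8.20 with ERG siRNA 2 and at 7.68, 7.69 and 7.56 with ERG siRNA 1 (difference 0.56 ± 0.08; limma, adjusted p = 0.0053), and its second probe gave 0.54. The ERG siRNA 2 arrays of this gene lay within the range of the non-targeting arrays, which had a mean of 8.25. DDC, which decarboxylates aromatic amino acids in the making of dopamine and serotonin, stood at 6.63, 6.63 and 6.59 with ERG siRNA 2 and at 7.02, 7.29 and 7.33 with ERG siRNA 1 (difference -0.59 ± 0.09; limma, adjusted p = 0.015). The non-targeting mean of DDC, 7.53, was above both. DDC no longer passed in 5 of the 6 fits that left out 1 array, all but the fit without ERG siRNA 1 replicate 1 (adjusted p up to 0.12), and without background correction its difference was -0.33.

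GCSH, the H protein of the mitochondrial glycine cleavage system, was at 8.73, 8.74 and 8.85 with ERG siRNA 2 and at 9.25, 9.34 and 9.30 with ERG siRNA 1 (difference -0.52 ± 0.07; limma, adjusted p = 0.0027). GCSH has processed pseudogene copies, so the signal cannot be assigned to the gene with certainty. It was read by a single probe past the filter, and its other probes were detected on 0 of the 15 arrays. GMDS, an enzyme of GDP-fucose synthesis, was at 8.95, 8.99 and 9.01 with ERG siRNA 2 and at 9.33, 9.50 and 9.53 with ERG siRNA 1 (difference -0.47 ± 0.08; limma, adjusted p = 0.019). For both genes the non-targeting means, 9.41 for GCSH and 9.56 for GMDS, were above both siRNAs and nearer to ERG siRNA 1. GMDS likewise no longer passed in 5 of the 6 fits that left out 1 array, all but the fit without ERG siRNA 1 replicate 1 (adjusted p up to 0.12), while GCSH passed in all 6.

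NEFH, the neurofilament heavy chain, was at 9.89, 9.70 and 9.67 with ERG siRNA 2 and at 9.20, 9.18 and 9.17 with ERG siRNA 1 (difference 0.57 ± 0.10; limma, adjusted p = 0.044). Both siRNAs were well above the non-targeting arrays of this gene, which had a mean of 7.83. SASS6, a component of the centriole cartwheel, was at 6.53, 6.41 and 6.38 with ERG siRNA 2 and at 6.99, 7.14 and 6.94 with ERG siRNA 1 (difference -0.58 ± 0.10; limma, adjusted p = 0.044). A further SASS6 probe gave -0.20, and SASS6 no longer passed when the mean of its probes was used. SHANK2, a postsynaptic scaffold protein, was at 6.27, 6.42 and 6.10 with ERG siRNA 2 and at 6.84, 6.71 and 6.75 with ERG siRNA 1 (difference -0.51 ± 0.09; limma, adjusted p = 0.044). SHANK2 was read by a single probe past the filter. Its other probes were detected on 0 of the 15 arrays and gave -0.08 to 0.06. The non-targeting means were 6.84 for SASS6 and 6.88 for SHANK2, in both cases above the ERG siRNA 2 arrays. The calls of these genes depended on every array or nearly so: leaving out any 1 of the 6 arrays ended that of NEFH (adjusted p up to 0.21) and of SASS6 (up to 0.18), and leaving out any but ERG siRNA 2 replicate 2 ended that of SHANK2 (up to 0.17). Without background correction the difference was -0.31 for SASS6 and -0.25 for SHANK2.

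The last pair were TMEM50B, a transmembrane protein gene, and MIR92A2. TMEM50B was at 10.39, 10.27 and 10.26 with ERG siRNA 2 and at 9.73, 9.79 and 9.92 with ERG siRNA 1 (difference 0.49 ± 0.07; limma, adjusted p = 0.0061), with a non-targeting mean of 10.10 between them. Its second probe gave 0.13 and the mean of both probes 0.31 (adjusted p = 0.34), and it no longer passed without ERG siRNA 1 replicate 2 or without ERG siRNA 2 replicate 1 (adjusted p up to 0.065). The probe annotated to MIR92A2, whose hairpin is printed above, read 5.45, 5.65 and 5.38 with ERG siRNA 2 (difference 0.72 ± 0.10; limma, adjusted p = 0.0053). It was undetected with ERG siRNA 1, where it read 4.68, 4.95 and 4.69, and on the non-targeting arrays, and of all 15 arrays it was detected on the 3 of ERG siRNA 2 alone. The difference is therefore a bound, at least 1.45-fold, in which the probe's value on each ERG siRNA 1 array was replaced by that of the dimmest detected probe where that one was brighter. The bound rests on the background correction, without which the difference was 0.22 and did not pass (adjusted p = 0.059). Raw intensities were 148, 147 and 135 with ERG siRNA 2, against 119, 126 and 122 with ERG siRNA 1. Since the gene passed the detection filter through the ERG siRNA 2 arrays alone, as 3 of all genes tested did, a difference was built into its selection; with no detection filter its adjusted p was 0.0069. An expression array of this kind does not measure the mature microRNAs, and their levels were not tested.

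**Figure D3:**
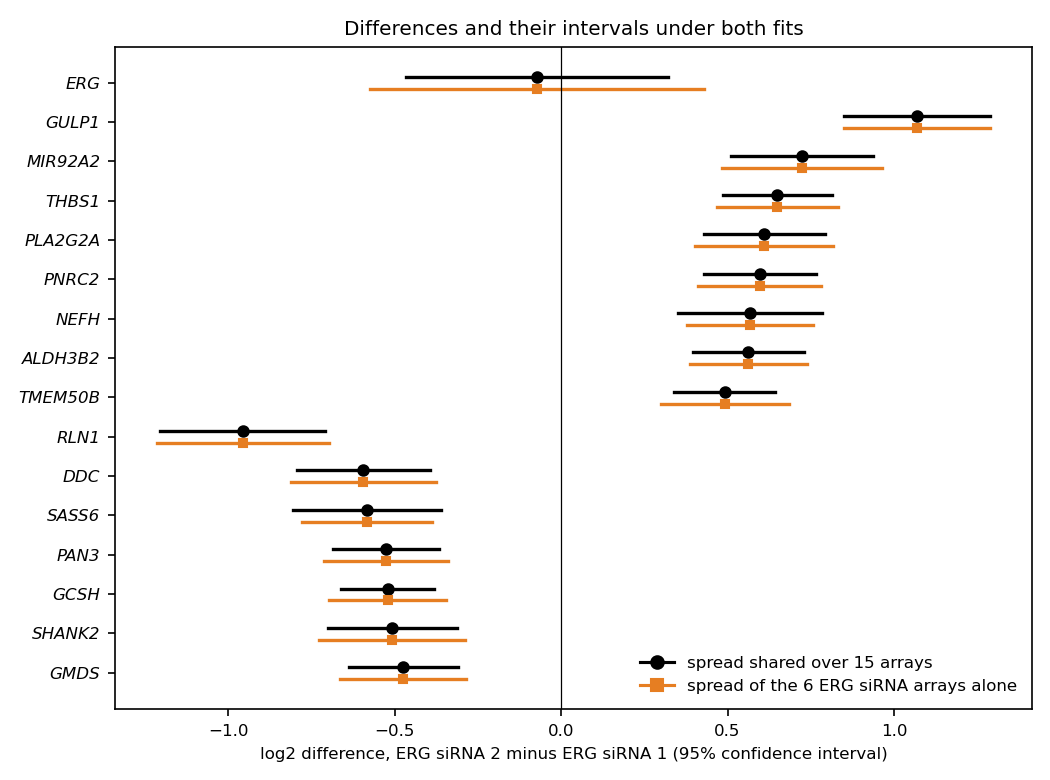
Difference in log2 intensity, ERG siRNA 2 minus ERG siRNA 1 (horizontal axis), with its 95% interval, for ERG and the 15 genes that differed (rows). The interval of ERG, -0.47 to 0.32, crosses 0, those of 8 genes lie above 0 and those of 7 genes below it. The 15 genes were selected by the fit of all 15 arrays, so their intervals from that fit exclude 0 by selection. Black circles and lines are the limma fit of all 15 arrays, for which these values are given, and orange squares and lines are the fit of the 6 ERG siRNA arrays alone.

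Set beside the non-targeting arrays, the 15 genes had no single order. The non-targeting mean lay between the siRNA means in 6 of the 15 genes (GULP1, PLA2G2A, PNRC2, TMEM50B, SASS6 and PAN3), above both in 6 and below both in 3. Over all genes tested it lay between them in 2637 (20.7%). The 15 genes were selected for a wide gap between the siRNAs, into which a further mean falls more readily. The shares of the 15 and of all genes therefore cannot be compared. For GULP1 the non-targeting mean was only 0.04 below that of ERG siRNA 2.

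A further 22 genes had adjusted p-values from 0.0506 to 0.0948, 16 with higher and 6 with lower values in ERG siRNA 2 cells, and did not pass the test. They are described after their values were seen. Among them were ABCG1, a sterol exporter, with 8.57, 8.14 and 8.36 with ERG siRNA 2, against 7.67, 7.75 and 7.85 with ERG siRNA 1 (difference 0.60 ± 0.11; limma, adjusted p = 0.056), and IGFBP3, a secreted binding protein of insulin-like growth factors, with 8.20, 8.13 and 7.92 with ERG siRNA 2, against 7.66, 7.64 and 7.69 with ERG siRNA 1 (difference 0.42 ± 0.08; limma, adjusted p = 0.056). Further probes of ABCG1 gave 0.56, 0.14, 0.12 and 0.05, so its probes disagreed in size. A further IGFBP3 probe gave 0.27. CCN3, a matricellular protein, had 9.53, 9.40 and 9.54 with ERG siRNA 2 and 8.93, 8.88 and 8.91 with ERG siRNA 1 (difference 0.58 ± 0.11; limma, adjusted p = 0.073).

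TSC22D3, a glucocorticoid- and androgen-induced leucine zipper gene, had 7.01, 6.91 and 6.84 with ERG siRNA 2 and 6.41, 6.33 and 6.42 with ERG siRNA 1 (difference 0.53 ± 0.11; limma, adjusted p = 0.092). A further TSC22D3 probe past the filter gave 0.19. Lower values with ERG siRNA 2 that did not pass were found for NSG1, a neuronal vesicle trafficking gene (difference -0.33), for the small nucleolar RNA genes SNORA84 (-0.48) and SNORA8 (-0.45), and for STING1, the adaptor of cytosolic DNA sensing (-0.43). The polo-like kinase gene PLK2, undetected with ERG siRNA 1, was at least 1.28-fold higher with ERG siRNA 2 (adjusted p = 0.092), and MAP1B, a microtubule-binding protein undetected with ERG siRNA 2, was at least 1.26-fold lower (adjusted p = 0.095). Of the genes with fitted differences of at least 1.5-fold, 5 did not pass. Among them ABCG1, CMKLR2 (-0.66) and SNORD114-2 (0.59) were detected with both siRNAs. The probes that stood for CTAGE15 and NCMAP were undetected with ERG siRNA 1. Their values with ERG siRNA 2 were at least 1.42-fold and at least 1.28-fold higher (limma, adjusted p = 0.26 and 0.17). A second CTAGE15 probe, detected on 1 ERG siRNA 1 array, gave only 0.18, so the CTAGE15 probes disagreed.

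Of the 40 gene lists examined, with 917 measured entries among 1130, 2 had a member that passed, and it was DDC in both, in the androgen-lowered and the neuroendocrine lists. As given above, the call of DDC did not outlast leaving out most single arrays. List medians ranged from -0.17 to 0.12, against 0.0068 over all genes tested. For the counts that follow, 0.118% of all genes tested passed, 4.97% were higher and 3.74% lower at an unadjusted p under 0.05, and 96.5% had an interval within 1.5-fold. Genes linked to ERG-positive prostate cancer had 0 of 24 measured members past the adjusted threshold. At an unadjusted p under 0.05, 1 was higher and 2 were lower, the median was -0.05, the largest difference was that of ARHGDIB (-0.30 ± 0.11, adjusted p = 0.43), and the 95% intervals of all 24 lay within 1.5-fold. Of 17 measured ETS factors 0 passed, 1 was higher and 1 lower at an unadjusted p under 0.05, and the largest difference was that of the ETS repressor ERF (-0.39 ± 0.13; limma, adjusted p = 0.37).

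Of 33 measured genes of the interferon response and of double-stranded RNA sensing 0 passed, with 1 higher and 1 lower at an unadjusted p under 0.05 and a median of 0.02. The largest fitted difference was that of RSAD2, an interferon-induced antiviral enzyme (-0.32 ± 0.12; limma, adjusted p = 0.48). RSAD2 was undetected on the 3 ERG siRNA 2 arrays and detected on only 2 ERG siRNA 1 arrays. The arrays of both siRNAs overlapped for this gene, so its fitted size is uncertain. All 33 fitted intervals lay within 1.5-fold. Of 20 measured genes of RNA interference and microRNA processing 0 passed, and 0 reached an unadjusted p under 0.05. The largest difference there was that of the Argonaute gene AGO4 (0.17, adjusted p = 0.64), and all 20 intervals lay within 1.5-fold. With 0.118% of all genes passing and 96.5% of all intervals within 1.5-fold, these counts are near those of all genes.

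Among androgen-induced genes 0 of 23 passed, while 5 were higher and 1 was lower at an unadjusted p under 0.05 (4.97% and 3.74% of all genes tested), with a median of 0.09 and TSC22D3 as the largest difference. Among mitosis and G2/M genes 0 of 36 passed, while 5 were lower (3.74% of all genes tested) and 0 higher (4.97%) at that level, with a median of -0.10 and the survivin gene BIRC5 as the largest difference (-0.29, adjusted p = 0.31). Of 38 genes of DNA replication and G1/S 0 passed, with 1 higher and 2 lower at that level and E2F1, a transcription factor of S phase entry, as the largest difference (0.31). Of 8 metallothioneins 0 passed, with 4 lower at that level (3.74% of all genes tested), a median of -0.17 and MT1G as the largest difference (-0.44, adjusted p = 0.20). The metallothionein copies are close in sequence and can share signal.

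Of 19 p53 target genes 0 passed, with 2 higher and 1 lower at an unadjusted p under 0.05 and TP53I3 as the largest difference (0.28). Of 24 apoptosis regulators 0 passed, with 1 higher and 2 lower at that level and the initiator caspase gene CASP8 as the largest difference (-0.25). Of 19 genes of cholesterol synthesis 0 passed, with 2 lower at that level and the HMG-CoA synthase gene HMGCS1 as the largest difference (-0.28). Of 29 cilium genes 0 passed, with 3 lower at that level and CFAP20 as the largest difference (-0.42, adjusted p = 0.11). Of 7 annexins 0 passed, with 1 higher at that level, a median of 0.12 and ANXA2 as the largest difference (0.22).

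**Figure D4:**
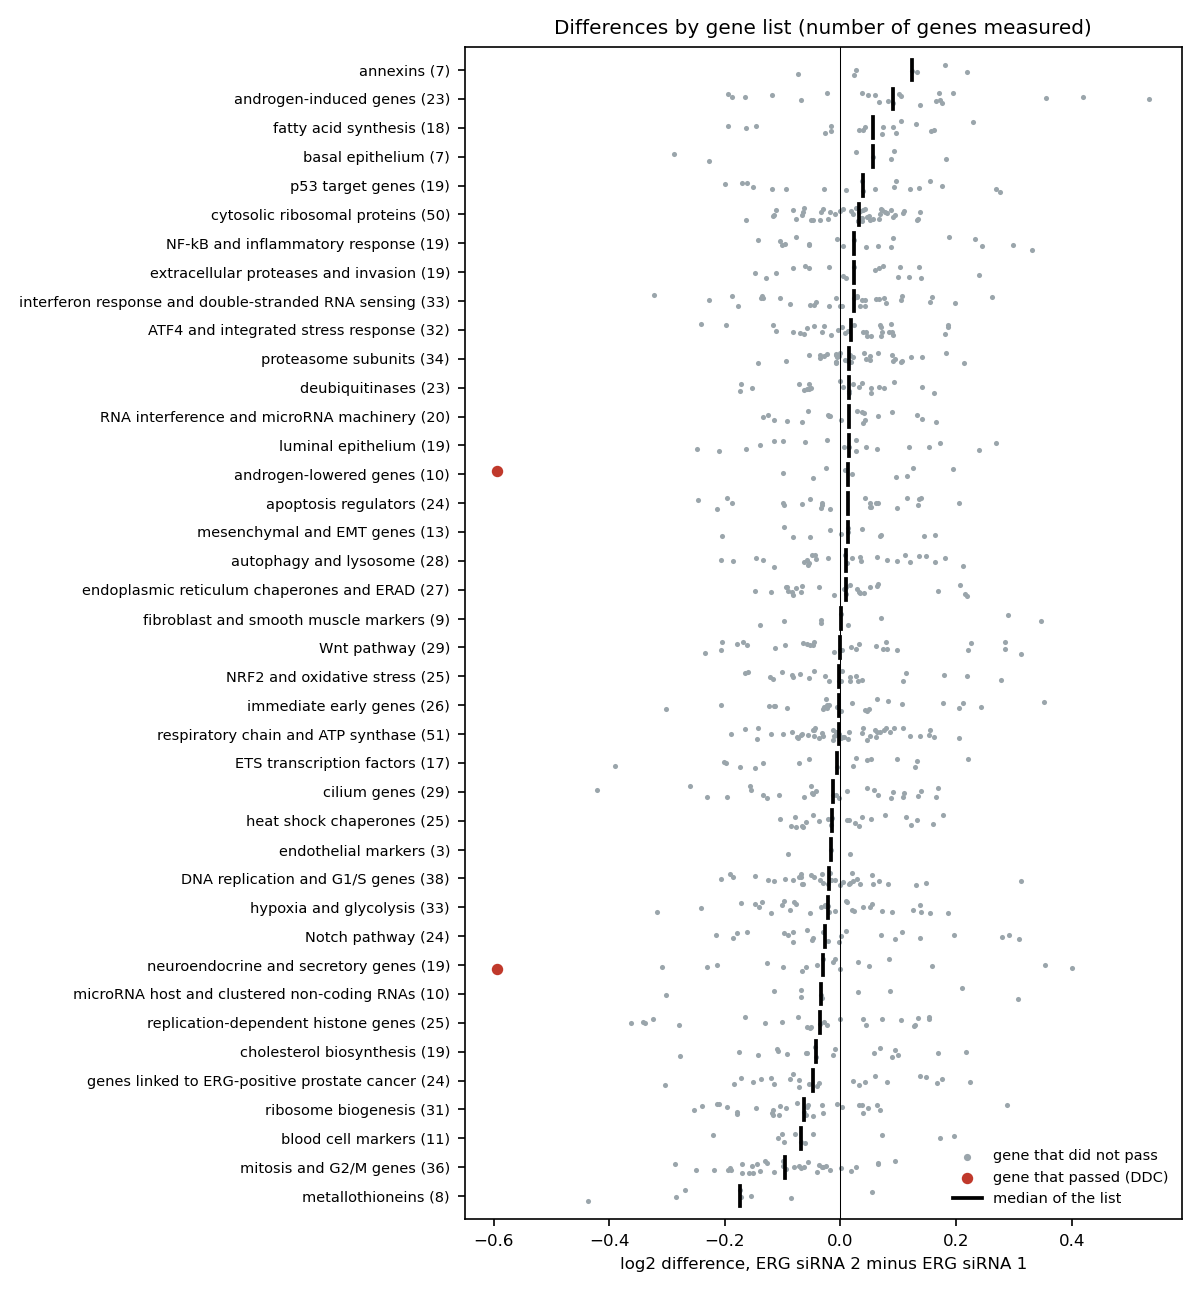
Difference in log2 intensity, ERG siRNA 2 minus ERG siRNA 1 (horizontal axis), of every measured member of the gene lists (rows). Each small grey point is a gene, the black bar is the list's median, and the red point is DDC, which passed the limma test and stands in both lists that hold it. Numbers in brackets are the genes measured. List medians lie between -0.17 and 0.12.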

How the data were processed

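For each of 47322 probes on 15 arrays, the deposited non-normalized file holds an intensity on a linear scale and, per the file headers, a detection p-value. The submitters' processing notes name GenomeStudio, with no version or role. The lowest deposited intensity was 81.0, so no background subtraction is visible. The authors' deposited processed values, an intensity table of the same arrays, served as an alternative, on the scale log2(value + 16).

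Intensities were background-corrected with normexp, taking the negative controls (770 beads implied) from the detection p-values and adding an offset of 16, then quantile normalized and log2 transformed (neqc in limma 3.58.1, R 4.3.3). Probes with a detection p under 0.05 on at least 3 of the 15 arrays were kept (23281, of which 17078 had 1 symbol in the platform annotation). The probe with the highest mean stood for each of 12744 genes. A limma model of all 5 groups, with eBayes moderation, gave the contrast ERG siRNA 2 minus ERG siRNA 1, with two-sided p-values adjusted over all genes by Benjamini-Hochberg. No pair of arrays was identical in its values (0 pairs). The number of arrays limits the precision, with a median 95% half-width of 0.21 on the log2 scale. The code was tested on simulated data. A further marker gene is not reported here.

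Named were ERG, up to 12 genes that passed in each direction and whose arrays did not overlap, with placeholder symbols left out, and of each gene list the members that passed or, with none, its largest difference. The members and the gene lists were chosen with earlier results of these data known. Alternatives covered background correction, scaling, the filter, the arrays fitted, the replicate number as a block, eBayes options, the probe for a gene, thresholds and leaving out each array. A slide block could not be run, since the sources used here name no slides.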

Additional observations from a re-analysis of the deposited data

How the results depend on the processing

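Against 15 genes in the report, the count of genes that differed between ERG siRNA 2 and ERG siRNA 1 was 58 without background correction, 36 with eBayes set to a trended, robust prior and 24 with a stricter detection filter. It was 6 with median scaling, 3 with no scaling between arrays, 7 with a minimum of 1.5-fold, 1 in the fit of the 6 ERG siRNA arrays alone and 1 when these arrays alone were also normalized and filtered. The share of higher genes was 53.3% in the report, 65.5% without background correction, 83.3% with median scaling and 66.7% with no scaling. Leaving out 1 array at a time gave 9 to 14 genes, with 9 both without ERG siRNA 1 replicate 2 and without ERG siRNA 2 replicate 1. The authors' processed values gave 16 genes, 15 of them shared. Apart from the replicate block, the other counts were within 1.5 times. The cause of these shifts was not tested.

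The replicate number as a block in the fit of the 6 arrays gave 0 genes (limma, smallest adjusted p = 0.0652) and 1215 at an unadjusted p under 0.05. Arrays of the same number deviated from their group means with correlations of 0.139, 0.047 and 0.124. Arrays of different numbers were not compared in this way, so these values do not decide whether the numbers pair the arrays. The labels state no pairing, and the main fit therefore had no block.

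GULP1 passed in 20 of 21 settings, RLN1 in 18, MIR92A2, PLA2G2A and THBS1 in 17 each, ALDH3B2 in 16, GCSH, PAN3 and PNRC2 in 15 each, TMEM50B in 12, DDC in 10, GMDS in 8, SHANK2 in 7, NEFH in 6 and SASS6 in 5. ALDH3B2, GCSH, GULP1, MIR92A2, PAN3, PLA2G2A, PNRC2, RLN1 and THBS1 passed in all 6 fits that left out an array. Wherever a detection filter was used, MIR92A2 entered through the ERG siRNA 2 arrays alone, so its counts carry that selection. With no detection filter its adjusted p was 0.0069 (limma). None of the 15 genes changed direction in these settings. ERG passed in no setting, and its difference ran from -0.25 to 0.16 when arrays were left out, with a turned sign without ERG siRNA 1 replicate 2 (0.16) and without ERG siRNA 2 replicate 2 (0.14). It gave no value under the stricter filter. Dim signal limits the values of ERG, MIR92A2 and RLN1. Their mean raw intensities were 136, 143 and 160 with ERG siRNA 2 and 138, 122 and 223 with ERG siRNA 1.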
